A study of Homo sapiens with 8 samples.

Results

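ROCK1 encodes a coiled-coil protein kinase of the contractile apparatus, and the data here are the 40 stretches of the ROCK1 gene that were listed as bound by eIF4G2 in cells that overexpressed eIF4G2. A region was taken as a ROCK1 region where the authors' deposited table names ROCK1 for it and places it inside the gene or across one of its transcript ends. The 40 regions are part of 1986 in the overexpression list, of which 1339 lie on chromosome 18, the chromosome of ROCK1. The control list of 1224 regions has none for ROCK1 and none anywhere on chromosome 18. ROCK1 thus accounts for 40 of 3210 regions in all.

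RNA was immunoprecipitated with an eIF4G2 antibody and sequenced (RIP-seq) from IHCF cells, which are cardiac fibroblasts of human origin made to divide without limit. Overexpression cells were infected with a lentivirus carrying full-length eIF4G2, and control cells with one carrying a scramble sequence. The 8 libraries form 4 groups of 2 biological replicates: eIF4G2-bound RNA and total RNA of eIF4G2 overexpression cells, and eIF4G2-bound RNA and total RNA of control cells. Only 1 list of bound regions per condition was used here, with positions on GRCh38 and no read count, score, strand or value per replicate, so depth is unknown and no difference between the conditions could be tested. The names of the tables tell which condition each belongs to, and they also contain "mov10", the name of an RNA helicase that no sample label mentions. The lists hold no expression values, so the fibroblast identity of the cells could not be checked against markers. EIF4G2 itself, on chromosome 11, had 0 regions in the overexpression list, against 0 in the control list, and neither list has any region on that chromosome.

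ROCK1 is a serine/threonine kinase. It phosphorylates the myosin-binding subunit of myosin phosphatase and the regulatory light chain of myosin, which raises actomyosin contraction, and it acts through LIM kinases on cofilin, which stabilises actin filaments. In fibroblasts this pathway builds stress fibres and focal adhesions, and it is a known part of the change of cardiac fibroblasts into contractile myofibroblasts. eIF4G2, also called DAP5, is a relative of the initiation scaffold eIF4G1 and supports translation without binding the cap-binding protein eIF4E.

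ROCK1 lies on the minus strand of chromosome 18, from 20946906 to 21111813 on GRCh38, a span of 164908 bp, and carries the identifier ENSG00000067900. The ends of the longest transcript in the authors' deposited table, ENST00000399799, are the same as those of the RefSeq gene record of GRCh38.p14. All positions along ROCK1 are given below as the distance from the start of this transcript, in the direction of transcription, and regions are numbered from the 5′ end. An exon model of ROCK1 was not used here, so the regions could not be divided into exonic, intronic or untranslated sequence.

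The 40 ROCK1 regions occupied the 3′ part of the gene and left the 5′ part empty. The region nearest to the start of the gene began 78.0 kb into it, so the first 47.3% of the span held none. The region nearest to the 3′ end stopped 2695 bp short of it. Between these limits lay a stretch of 84.2 kb, 51.1% of the gene, with on average 1 region for every 2.11 kb. The regions summed to 23185 bp, which is 14.1% of the gene span and 27.5% of the occupied stretch. Of the 40 midpoints, 38 lay beyond the middle of the span and 2 before it, at 47.4% and 49.7% of the way along. When the span was cut into 10 equal parts from the 5′ end, the first 4 held 0 regions, the fifth 2, the sixth 4, the seventh and the eighth 12 each, the ninth 8 and the last 2.

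**Figure D1:**
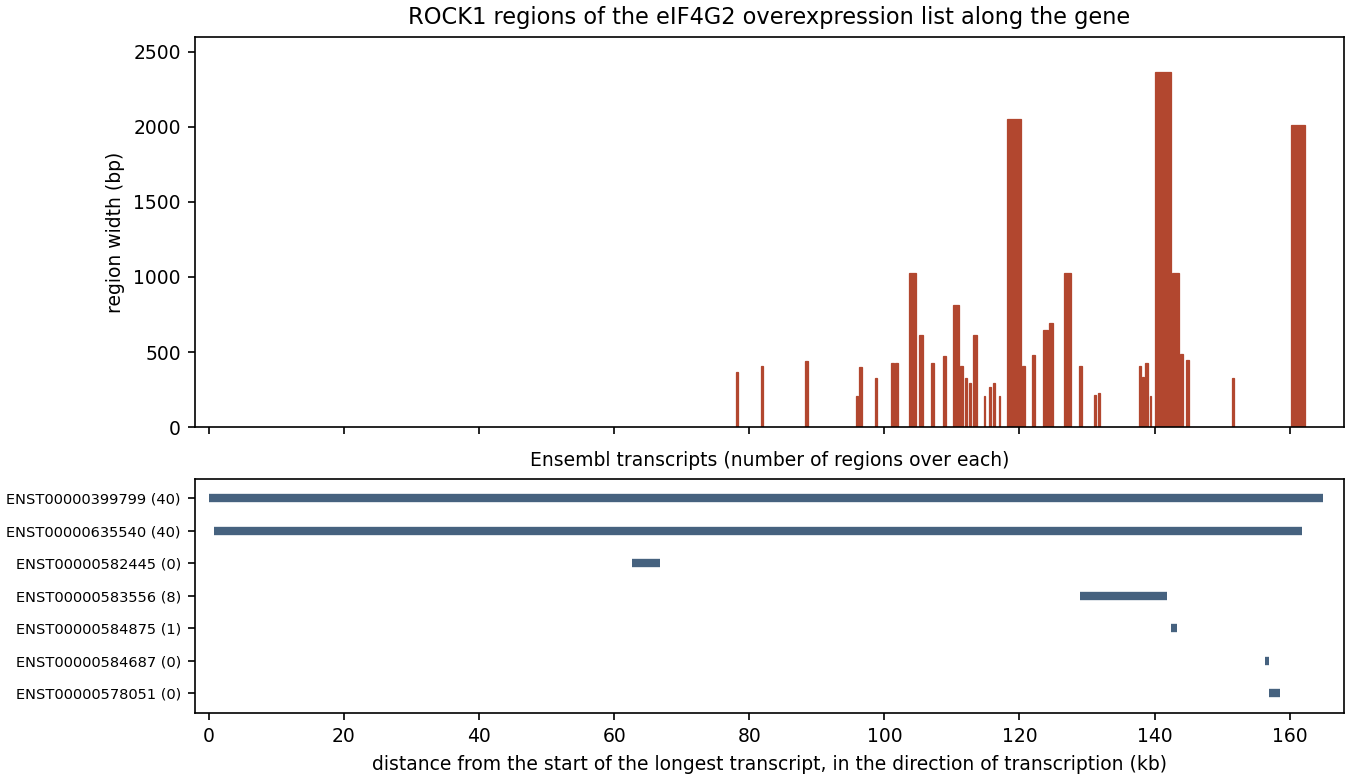
Top, each ROCK1 region of the eIF4G2 overexpression list drawn to scale at its distance from the start of the longest transcript (kb), with its height giving its width (bp). Bottom, the spans of the 7 Ensembl transcripts, with the number of regions over each in brackets; the first 78.0 kb hold no region, and 35 of the 40 regions lie between 95.8 and 145 kb.

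The widths of the ROCK1 regions ran from 205 to 2365 bp, with a median of 417.5 bp and quartiles of 328.75 and 615 bp. Of the 40 regions, 29 were narrower than 500 bp. The 6 regions of at least 1000 bp together covered 9505 bp, 41.0% of the summed width. The widest, number 35, lay at 20969381 to 20971745 (2365 bp). Number 22, at 20991591 to 20993640, was 2050 bp wide. Number 40, at 20949601 to 20951615, was 2015 bp wide and is the one closest to the 3′ end. The other 3 wide regions, numbers 9, 27 and 36, were each 1025 bp. The 6 wide regions were spread from 104 kb to 162 kb, and 35 and 36 were the one neighbouring pair.

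The spacing was uneven. The 39 gaps between neighbouring ROCK1 regions had a median of 615 bp and ran from 75 to 8405 bp. Of these gaps 21 were at most 1000 bp and 9 were at most 215 bp, while 5 were over 5000 bp. These 5 long gaps parted the regions into 6 groups of 2, 1, 27, 8, 1 and 1 regions, counted from the 5′ end.

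**Figure D2:**
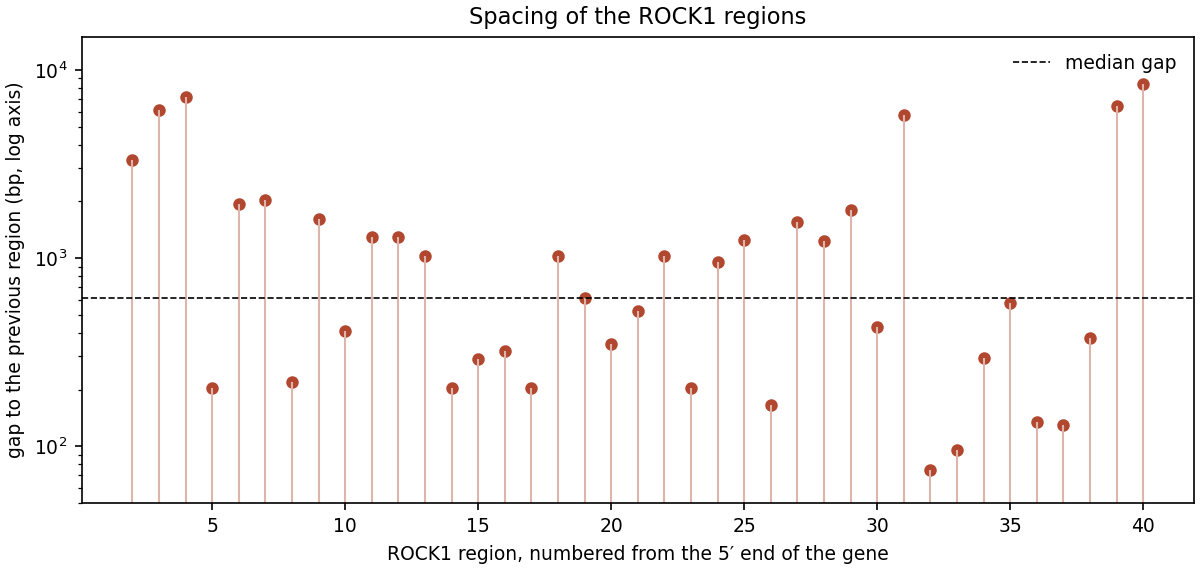
Gap between each ROCK1 region and the one before it (bp, log axis), with regions numbered from the 5′ end of the gene and the dashed line at the median of 615 bp. The 5 gaps over 5000 bp stand before regions 3, 4, 31, 39 and 40, and the shortest, of 75 and 95 bp, before regions 32 and 33.

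The 5′-most regions were far apart and below 500 bp. Region 1 lay at 21033451 to 21033820, was 370 bp wide and was the first from the 5′ end. Region 2 followed after 3320 bp and was 410 bp wide, at 21029721 to 21030130. Region 3 stood alone, 6150 bp further on, at 21023131 to 21023570 (440 bp). No region followed for the next 7145 bp.

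The third group was the main body, with 27 regions between 95.8 and 132 kb, at 20979906 to 21015985. Its regions summed to 13920 bp and covered 38.6% of the 36.1 kb that it spans. In order from the 5′ end, regions 4 to 12 were 205, 400, 330, 425, 430, 1025, 615, 430 and 475 bp wide. In this run region 9 alone was wider than 1000 bp. Regions 13 to 21 were 815, 410, 325, 295, 615, 205, 265, 295 and 205 bp wide. Regions 18 and 21 of this run, region 4 before it and region 34 after it were the narrowest ROCK1 regions. Regions 22 to 30 were 2050, 410, 480, 645, 695, 1025, 410, 215 and 225 bp wide. The gaps within this group ran from 165 to 2035 bp, with a median of 785 bp.

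The fourth group was the most tightly packed. It held 8 regions between 138 and 145 kb, at 20966786 to 20974165, which covered 5700 of 7380 bp, or 77.2%. From the 5′ end these were 410, 335, 430, 205, 2365, 1025, 485 and 445 bp wide. The 7 gaps between them were 75 to 575 bp, with a median of 135 bp, and the shortest gaps of the gene were here. The remaining ROCK1 regions stood alone: region 39 (330 bp) lay at 20960021 to 20960350 after a gap of 6435 bp, and region 40 followed after 8405 bp, the longest gap.

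The deposited table names 7 Ensembl transcripts of ROCK1. All 40 regions lay over both long transcripts, ENST00000399799 and ENST00000635540, so the regions do not separate one from the other. The second of these starts later and ends earlier, and its first region came 77.2 kb after its start. Region 40 runs across the 3′ end of ENST00000635540, with 1664 bp inside it and 351 bp beyond, and lies wholly inside ENST00000399799.

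Of the 5 short transcripts, 2 had regions. ENST00000583556, at 20969958 to 20982783, had 8, of which 6 lay wholly inside it. Region 28 crosses its 5′ end (213 bp inside, 197 bp beyond) and region 35 its 3′ end (1788 bp inside, 577 bp beyond). ENST00000584875, at 20968485 to 20969354, had 1, region 36, with 761 bp inside and 264 bp beyond its 3′ end. Each of these 9 regions also lay over the long transcripts, so none can be given to a short form. ENST00000578051 and ENST00000584687, near the 3′ end, and ENST00000582445, 11.2 kb on the 5′ side of region 1, had 0.

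No other gene lay under the ROCK1 regions. Of the 40, 0 overlapped another Ensembl gene in the authors' deposited table and 0 overlapped another RefSeq gene record. The nearest other region on the 5′ side, 410 bp wide at 21612126 to 21612535, lay 500.3 kb from ROCK1, over the start of SNRPD1, which encodes a core protein of the spliceosomal snRNPs. On the 3′ side the nearest was in the zinc finger gene ZNF519, 6874 kb away. The only protein-coding RefSeq genes in that interval are POTEC and ANKRD30B. Each had 0 regions in the overexpression list, against 0 in the control list. GREB1L and ESCO1, a cohesin acetyltransferase gene, lie between ROCK1 and SNRPD1 and had 0 regions in the overexpression list, against 0 in the control list. Beyond SNRPD1 (10 regions), ABHD3 had 14 and the ubiquitin ligase gene MIB1 had 12, all in the overexpression list.

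ROCK1 has a partial copy, the transcribed pseudogene ROCK1P1, on the same chromosome at 109065 to 122340, and a paralog, the kinase gene ROCK2, on chromosome 2. Both had 0 regions in the overexpression list, against 0 in the control list. How reads that match ROCK1 and ROCK1P1 equally well were assigned is not stated in the labels or tables. The absence of ROCK2 cannot be set against the regions of ROCK1, since neither list reached chromosome 2.

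ROCK1, with 40 regions in overexpression cells and 0 in control cells, is set here against chromosome 18 as a whole. Of the 270 protein-coding genes of this chromosome, 60.0% were listed in the overexpression list, against 0% in the control list. The control list names ROCK1 in no row, not even as the nearest gene to a region, and it has no region on this chromosome. A difference between the conditions at ROCK1 cannot be told apart from the difference between the lists over the whole of chromosome 18.

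Within the overexpression list no named gene had more regions than ROCK1, out of 534 with at least 1. The median over these genes was 2. Chromosome 18 holds 67.4% of the list, with regions from 205 bp wide, while those of chromosome 4 are at least 400 bp wide. The 5 genes next in number all lie on chromosome 18. The rank was not adjusted for these differences between chromosomes. ROCK1 was also chosen with earlier results of these data known, so its rank is a description and not independent support. ROCK1 made up 2.01% of the list (95% Wilson interval 1.48 to 2.73) and 2.99% of its chromosome 18 regions (2.20 to 4.04). These intervals treat regions as independent draws, although many lie close together and the shares are taken over the full list. They do not measure spread between replicates. ROCK1 is a long gene. Of the 89 other protein-coding genes of chromosome 18 with a span of at least 100 kb, 50 had a region and 19 had at least 10, and the median number was 2 over all 89 and 7 over the 50.

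**Figure D3:**
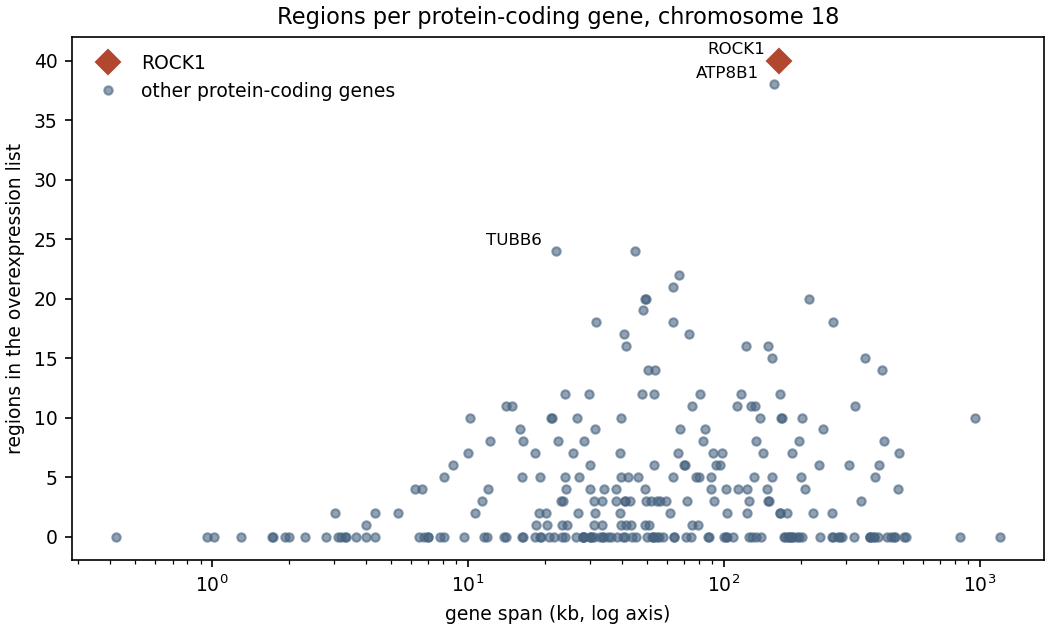
Number of regions in the eIF4G2 overexpression list against gene span (kb, log axis) for the 270 protein-coding genes of chromosome 18, with ROCK1 as a diamond. ROCK1 (40 regions) and ATP8B1 (38) lie above all others, the next being NDC80 and TUBB6 with 24 each.

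Per length ROCK1 was less far from the rest. It had 0.243 regions per kb of its RefSeq span. The 95 other protein-coding genes of chromosome 18 with at least 5 regions had a median of 0.118 per kb, in a range of 0.0104 to 0.987, and 36 of them had more than ROCK1. By the share of the span covered (14.1% for ROCK1, a median of 5.86% for the others), 24 of the 95 were above it. ROCK1 was thus first by number and not by density.

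The 5 genes closest to ROCK1 in regions per kb were ATP8B1, TGIF1, MBD2, KDSR and ABHD3, over 1 list each. ATP8B1, which encodes a phospholipid flippase, was nearest with 0.242 per kb and was the one other gene with a similar number and length, at 38 regions in 157 kb. TGIF1, a transcriptional repressor gene, had 0.250 per kb from 12 regions. MBD2, which encodes a reader of methylated DNA, had 0.233, KDSR, the gene of an enzyme of sphingolipid synthesis, 0.253 and ABHD3, a phospholipase gene, 0.260. After ATP8B1, the genes with the most regions were the kinetochore gene NDC80 and the tubulin gene TUBB6, with 24 each (14 of the 24 of TUBB6 inside or overlapping its RefSeq span), the proteasome assembly gene PSMG2 with 22 and the spliceosome gene TXNL4A with 21.

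These genes differed in where along the gene the regions lay. In ROCK1 95% of the regions had their midpoint beyond the middle of the span, against 57.9% in ATP8B1, whose regions began 2.93% of the way along. The regions of TGIF1 began at 66.7% and those of ABHD3 at 48.7%, both later than those of ROCK1 at 47.3%. The share beyond the middle was 100% in TGIF1, 92.9% in ABHD3, 82.4% in MBD2 and 50% in KDSR. It was 71.4% in TXNL4A, 70.8% in NDC80, 36.4% in PSMG2 and 21.4% in TUBB6. Of the 95 other genes with at least 5 regions, 31 had a longer empty 5′ part than ROCK1 as a share of the span, and the median was 25.5%. In 28 of the 95 all regions inside or overlapping the span lay beyond its middle, and the median share was 72.7%. The difference between ROCK1 and these genes was not tested, since 1 list gives no replicate.

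**Figure D4:**
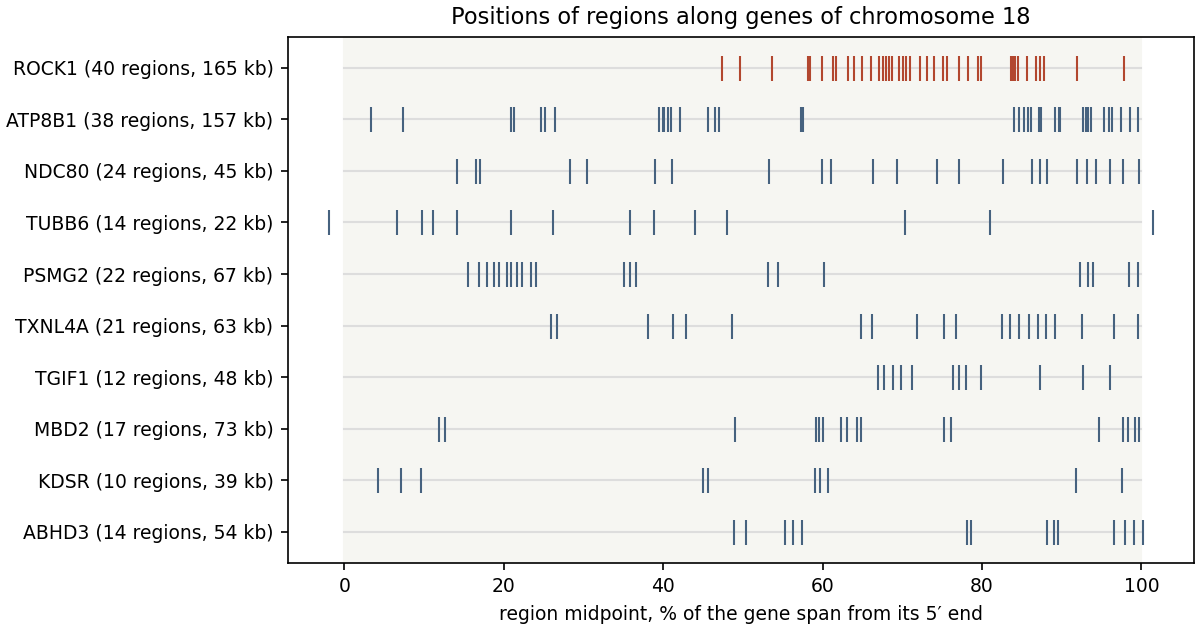
Midpoint of each region of the eIF4G2 overexpression list as a percentage of the gene's RefSeq span, counted from its 5′ end, for ROCK1 (top) and the 9 chromosome 18 genes with the most regions or with the closest number of regions per kb; regions that do not overlap the RefSeq span are not drawn. The marks of ROCK1 begin at 47.4% and crowd between 58.2% and 87.8%, while those of ATP8B1 run from near the start to the end.

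The ROCK1 regions were seldom of the smallest width. Of the 40, 5 were 205 to 215 bp wide (12.5%), against 646 of the 1299 other regions of chromosome 18 (49.7%). The median width was 417.5 bp in ROCK1 and 220 bp in the others, and 32.2% of the others were at least as wide as the ROCK1 median. Regions of at least 1000 bp made up 15.0% in ROCK1 and 12.5% in the others. Among the 95 other genes with at least 5 regions, 19 had a higher median width than ROCK1. The difference between ROCK1 and the other regions was not tested, because regions of 1 list are not replicates.

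**Figure D5:**
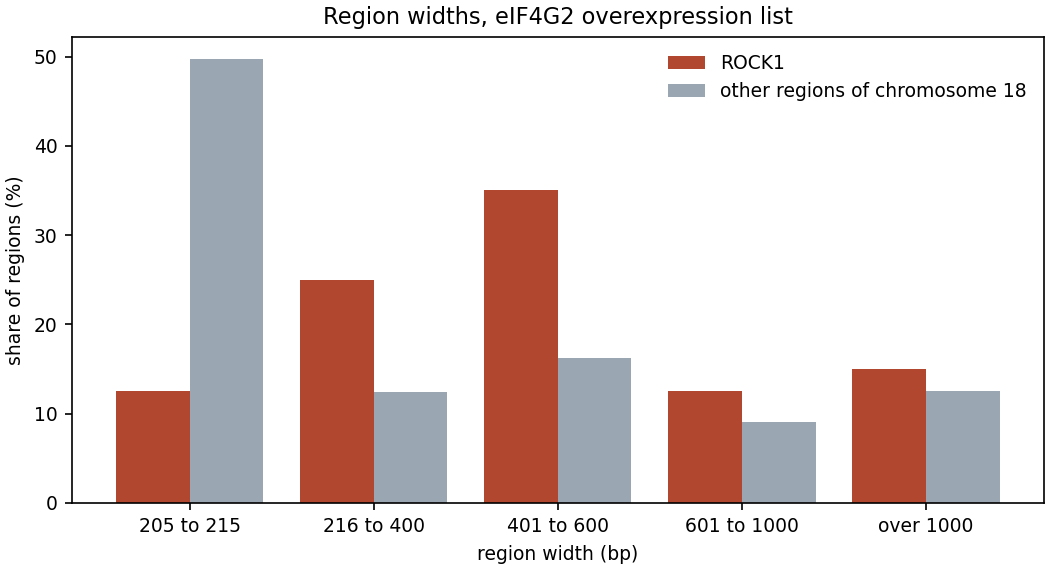
Share of regions (%) in 5 classes of width (bp) for the 40 ROCK1 regions and for the 1299 other chromosome 18 regions of the eIF4G2 overexpression list. In ROCK1 the class of 401 to 600 bp is the most frequent (35.0%), and in the others the class of 205 to 215 bp (49.7%).

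The ROCK pathway was followed through a list of 65 other genes, of which 19 lie on chromosomes 4, 10 and 18 and 46 elsewhere. This pathway list was drawn up with earlier results of these data known. Its counts beside the shares of coding genes, here and below, are therefore no independent test of the pathway. None of the 46 had a region. Outside these 3 chromosomes 0.142% of protein-coding genes were listed in the overexpression list, against 0.00547% in the control list. Of the 19 members on them, 8 were in the overexpression list, against 6 in the control list, with 3 shared. The share of all coding genes in both lists, or in either alone, was not computed. The 3 shared members therefore have no background share. On chromosome 18 the 3 members were counted against 60.0% of coding genes for the overexpression list, and 2 had regions. The control list held 0% of the coding genes of this chromosome. A control count of 0 for a member here is therefore shared by all coding genes of chromosome 18. It does not show a gain specific to that member. MYL12A and MYL12B, neighbouring genes for the regulatory light chains of non-muscle myosin, which carry the phosphate that drives contraction, had 6 regions (5725 bp) and 8 regions (3940 bp) in the overexpression list, against 0 in the control list. Of these, 1 region of MYL12A and 2 of MYL12B also lie over the antisense gene MYL12-AS1. ARHGAP28, a GTPase-activating protein gene, had 0 in both lists.

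On chromosome 4, 4 of 9 members were in the overexpression list, against 6 in the control list. Of its coding genes, 27.3% and 43.1% were in these lists. ARHGAP10, which encodes a GTPase-activating protein, had 2 regions (1550 bp) in the overexpression list and 1 (400 bp) in the control list. ADD1, the gene of alpha-adducin, a protein of the membrane skeleton, had 1 (1605 bp) and 3 (8035 bp) in the overexpression and control lists, and 1 of the 3 also lies over SLC75A1. CRMP1, the gene of a collapsin response mediator protein, had 9 (7440 bp) and 6 (7670 bp), of which 4 and 1 also lie over EVC. These 3 genes were in both lists.

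ARHGEF38 had 1 region (1295 bp) in the overexpression list alone, which also lies over INTS12. The control list alone held ARHGAP24, the gene of a GTPase-activating protein phosphorylated by ROCK (6 regions, 3105 bp, all also over MAPK10), SHROOM3, whose protein binds ROCK (1 region, 1120 bp, also over SHROOM3-AS1), and LIMCH1, the gene of an activator of non-muscle myosin (1 region, 1000 bp). RHOH, a GTPase gene, had 0 in both. On chromosome 10, 2 of 7 members were in the overexpression list, against 9.13% of its coding genes: ARHGAP21 (1 region, 2050 bp) and ARHGAP22 (5 regions, 5125 bp), while the control list held 0, against 4.09%. ADD3, VIM, RHOBTB1 and ACTA2 were among those with 0. The highest number of regions in a member of the pathway list was 9, in CRMP1, against 40 in ROCK1. CRMP1 lies on chromosome 4, where the overexpression regions are at least 400 bp wide. With regions of at least 400 bp only, ROCK1 had 26. Per kb of RefSeq span, MYL12A (0.685) and MYL12B (0.429) were above ROCK1 (0.243).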

How the data were processed

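RIP-seq libraries of eIF4G2-bound and total RNA were made from IHCF cells. Per the submitters' processing notes the tools were HISAT2 2.1.0, Trimmomatic 0.36 and bcl2fastq 2.19.0, on GRCh38 (hg38). Which program called the regions, at what threshold, and how total RNA and replicates entered is not stated in the labels. The authors deposited a table for each condition, and per the file headers its values are positions, widths and distances in bp.

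Each region was counted once. Overlap meant at least 1 bp. RefSeq records of GRCh38.p14 gave gene spans and types, and 18 table names were updated through RefSeq synonyms. Along other genes only regions inside or overlapping the RefSeq span were placed, which left out some regions of 10 genes. A share of regions over exons was not computed. Genes were named by a rule: ROCK1, its copies, genes under or next to its regions, the 5 with the most regions, the 5 nearest in regions per kb among chromosome 18 genes with at least 5 regions, and pathway members with a region. Pathway members without a region on chromosomes 4, 10 and 18 were named afterwards, and some are not reported here. The gene and lists were chosen with earlier results of these data known. Gap, merging and overlap functions were tested on simulated data. Python 3.11.15, pandas 2.3.3, numpy 2.4.6, scipy 1.17.1 and matplotlib 3.10.9 were used.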

Additional observations from a re-analysis of the deposited data

How the results depend on the processing

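The number of ROCK1 regions in the overexpression list (40) depended on how close regions were joined: 38 remained when gaps up to 100 bp were bridged and 19 when gaps up to 1000 bp were. With regions of at least 400 bp only, 26 were left, with a summed width of 19380 bp in place of 23185 bp. The median gap of 615 bp became 955 bp after bridging gaps up to 100 bp and 1230 bp with regions of at least 400 bp. The number stayed at 40 with regions wholly inside the gene, with nearest genes counted and with regions over no other gene. The sum stayed at 23185 bp without regions over other genes and within the gene span. All 40 regions lie wholly inside the gene and 0 over another gene, so these limits had nothing to remove. The number in the control list stayed at 0 with nearest genes counted, which was fixed because that list has no region on chromosome 18. In settings added after the data were seen, 0 named genes had more regions than ROCK1 with the regions of every gene bridged across 100 or 1000 bp or held to at least 400 bp, and ATP8B1, the next, had 36, 15 and 18. The share of regions over exons was not run, as no exon annotation was used here. No paired analysis was possible because the lists carry no replicate. The lists give no depth, so binding below the caller's threshold cannot be told from no binding in the empty 5′ part of ROCK1.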

Other observations

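Every edge of the chromosome 18 regions in the overexpression list fell on a multiple of 205 or of 215 bp counted from the start of the chromosome (0 of 1339 regions had an edge on neither). Both steps were chosen from these same regions: 205 bp is their narrowest width, and 215 bp was picked to fit all other edges. Of the 40 ROCK1 regions, 15 had both edges on multiples of 205 bp, 6 had both on multiples of 215 bp, and 19 (47.5%) had an edge on each. Among the 1299 other chromosome 18 regions the numbers were 454, 507 and 338 (26.0%). A region exactly 205 or 215 bp wide cannot have an edge on each step. Widths of 205 to 215 bp made up 12.5% of the ROCK1 regions and 49.7% of the others. The shares of 47.5% and 26.0% are therefore not taken at like widths, and wider regions were not compared alone. An edge on both was counted with the other edge of its region. On chromosome 10, all 121 overexpression and all 29 control regions had both edges on multiples of 205 bp. The steps did not hold throughout the lists. On chromosome 4, 324 of 491 overexpression and 612 of 1185 control regions had an edge on neither. The same was true of all 22 overexpression regions of chromosome X and all 7 control regions of chromosome 21. What the steps of 205 and 215 bp stand for is not given in the sources used here, and whether they belong to the replicates was not tested. The widths and gaps given for ROCK1 carry these steps.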
